A study of Mus musculus with 6 samples.

Results

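Mature goblet cells of the mouse small intestine were taken as cell barcodes in which the mucus genes Zg16, Clca1, Fcgbp and Muc2 together gave at least 30 of every 10000 UMIs (a UMI marks 1 captured RNA molecule). Barcodes with at least 1 UMI of both Atoh1 and Dll1, the genes of secretory progenitors, were left out, and so were those with 10% or more of their UMIs from the Paneth cell genes Lyz1 and those named Defa. This gave 2100 of 26153 barcodes, or 8.06% of the 26045 that had at least 500 genes and at most 25% mitochondrial UMIs. The barcodes were thus chosen by the levels of these genes, which are given as a description.

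The study recorded single-cell transcriptomes of small-intestinal epithelial cells from C57BL/6J mice aged 8 weeks, with 3 wild-type libraries and 3 libraries labelled Itgb7 KO (genotype Itgb7-/-), each group numbered 1 to 3. Itgb7 encodes the β7 integrin subunit, which T cells of the epithelium carry together with αE and which in that form binds E-cadherin on epithelial cells. The series title concerns such T cells and the choices of intestinal stem cells, from which goblet cells descend. How the deletion was made, and whether a library holds 1 animal or several, are not given in the sources used here. The p-values therefore set the difference between the groups against the spread of libraries within them, and that spread can be technical. Values for 3 libraries are listed in the order of their numbers.

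Goblet cells are secretory cells of the crypt and villus that release the mucus lining the gut. They arise from dividing crypt progenitors that escape Notch signalling and switch on Atoh1 and then Spdef. The mature cell is filled with granules of the gel-forming mucin Muc2, a large protein that is folded in the endoplasmic reticulum, coated with sugars in the Golgi and packed with partner proteins before release.

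The number of goblet barcodes was 262, 391 and 501 in wild-type and 259, 347 and 340 in Itgb7 KO-labelled libraries. Their median depth was 21470, 11062 and 11444 UMIs in wild-type and 17384, 8398 and 5709 UMIs in Itgb7 KO-labelled libraries, so depth differed several-fold between libraries and was lowest in the libraries labelled Itgb7 KO 2 and 3. The smallest UMI total deposited for any barcode ranged from 1417 to 13621 over the libraries, which therefore entered with different lower limits. The median share of mitochondrial UMIs in goblet barcodes lay between 2.39 and 3.22% in all libraries. Any 2 libraries shared 12 to 42 barcode sequences. Itgb7 itself was not a usable check of the labels: it gave 1, 0 and 0 UMIs in wild-type goblet barcodes and 3, 1 and 1 in those labelled Itgb7 KO, and over the other barcodes it was more frequent in the latter (0.0215, 0.118 and 0.0401 CPM in wild-type and 0.347, 0.653 and 0.46 CPM in Itgb7 KO-labelled libraries). This goes against the label. A tag from the 3′ end may lie outside the deleted part and then checks nothing, so the group is called by its label throughout. Itgae, the gene of the αE partner, gave 1, 2 and 3 UMIs in the wild-type goblet sums and 0, 1 and 0 in the others.

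The chosen barcodes carried the marker that the rule did not use. Tff3 (ENSMUSG00000024029, chr17:31125306-31129646, GRCm38), a trefoil peptide secreted with mucus, had at least 1 UMI in 100% of goblet barcodes of each library after every barcode was thinned to 3000 UMIs. Its level was 44086, 50513 and 41045 CPM in wild-type and 47312, 63267 and 60593 CPM in Itgb7 KO-labelled libraries, where CPM is UMIs per 1000000 UMIs summed over the goblet barcodes of a library. In the other kept barcodes (those neither goblet, nor with Atoh1 and Dll1, nor Paneth by the rule) it was 1485, 754 and 1031 CPM in wild-type and 1182, 722 and 753 CPM in Itgb7 KO-labelled libraries. A UMI of Tff3 was also found in 69.4 to 98.2% of those other barcodes at that depth, so a UMI of an abundant goblet product does not by itself mark a goblet cell here, and levels rather than shares are given for such genes.

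**Figure D1:**
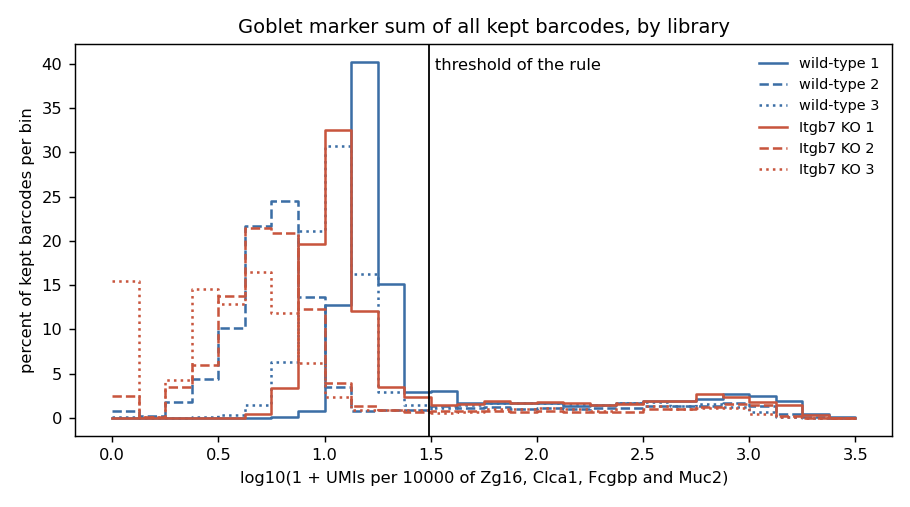
The share of kept barcodes (vertical axis, percent per bin) is plotted against the summed level of Zg16, Clca1, Fcgbp and Muc2 (horizontal axis, log10 of 1 plus UMIs per 10000), 1 line per library, before barcodes with Atoh1 and Dll1 or Paneth RNA were left out. Most barcodes form a peak below the threshold whose place differs between libraries, and a low shelf of goblet barcodes runs from the threshold to beyond 1000 UMIs per 10000.

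The level of the 4 genes outside the goblet barcodes was not the same in all libraries. Their median sum in the remaining kept barcodes was 14.6, 4.75 and 10.02 in wild-type and 10.1, 4.33 and 2.89 in Itgb7 KO-labelled libraries, in UMIs per 10000. Wild-type library 1 came nearest to the threshold, where 95% of the remaining barcodes were below 20.2. In the goblet barcodes the median sum was 423, 320.3 and 216 in wild-type and 357, 491 and 264 in Itgb7 KO-labelled libraries on the same scale. Few members lay near the limit: each library had 3 to 14 with a sum of 30 to 35 UMIs per 10000, beside 4 to 23 barcodes at 25 to 30. Just inside the limit Tff3 stood at 6161 to 27460 CPM, and just outside at 8116 to 25105 CPM.

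More barcodes were left out for carrying Atoh1 and Dll1 than were kept. Of 4654 barcodes with the marker sum, 2418 (52.0%) had both genes and 188 had 10% or more Paneth RNA, with 52 in both sets. Among the 2100 kept, 1181 had a UMI of Atoh1, 547 a UMI of Dll1, and 372 (17.7%) had neither. The left-out barcodes with Atoh1 and Dll1 were close to the goblet barcodes in their products. Tff3 was 45824 ± 6069.9 CPM there (SD, n = 6) and 51136 ± 8979 CPM in the goblet barcodes, Agr2 22924 ± 2319.8 CPM and 21702 ± 2522 CPM, Muc2 3341 ± 603 CPM and 3933 ± 631 CPM, and Spdef 184 ± 34.6 CPM and 162 ± 28.3 CPM. Genes of dividing cells were higher in the left-out barcodes, with Ube2c at 152 ± 54.2 CPM against 96.0 ± 44.4 CPM and Cdk1 at 50.4 ± 16.01 CPM against 31.2 ± 12.8 CPM. After thinning to 3000 UMIs, which removes most joint detections, the share of barcodes taken as goblet was 26.8, 14.6 and 17.5% in wild-type and 23.4, 10.3 and 10.8% in Itgb7 KO-labelled libraries. The number of barcodes left out as progenitors thus moves with depth, and the label "mature" holds only as far as joint detection of 2 weakly expressed genes can tell.

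Mucus proteins and their partners made up a large share of goblet RNA. Tff3, the Kazal-type protease inhibitor Spink4, Zg16, the disulfide isomerase Agr2, the guanylate cyclase ligand guanylin (Guca2a) and Fcgbp together took up 12.7 to 18.1% of the goblet UMIs of a library, against 0.190 to 0.447% in the other barcodes. This share was 13.9, 15.04 and 12.7% in wild-type and 14.1, 18.1 and 17.2% in Itgb7 KO-labelled libraries, highest in the libraries labelled Itgb7 KO 2 and 3. UMIs are counted once per molecule near its 3′ end, so the levels of different genes are compared without dividing by length. Zg16, a lectin that binds the bacterial cell wall, stood at 35573, 32018 and 19797 CPM in wild-type and 34673, 36158 and 22366 CPM in Itgb7 KO-labelled libraries. Wild-type library 3 and the library labelled Itgb7 KO 3 were the lowest, and the groups overlapped. Muc2, the gel-forming mucin itself, was 4550.0, 3898 and 3861 CPM in wild-type and 4755, 3415 and 3122 CPM in Itgb7 KO-labelled libraries. Fcgbp, a large mucus protein bound to it, was 9167, 5659 and 6285 CPM in wild-type and 8247, 8835 and 8660.2 CPM in Itgb7 KO-labelled libraries. For these genes and for Clca1, a metalloprotease that processes mucus (1487 to 2434 CPM), the groups overlapped too. Spink4, which is not in the rule, was 23877, 28894 and 27155 CPM in wild-type and 24205, 38787 and 46198 CPM in Itgb7 KO-labelled libraries. Its 2 highest libraries were those labelled Itgb7 KO 2 and 3, while number 1 of that group lay among the wild-type libraries.

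Of 26 secreted goblet products on the list, 19 were higher in goblet than in other barcodes in all 6 libraries, 13 of them by more than 4 times. Agr2, which is needed for mucin folding, lay at 17804 to 23884 CPM, 35.5 to 83.4 times its level in other barcodes. Guca2a lay at 7714 to 10821 CPM, the chemokine Ccl6 at 1649 to 3354 CPM, its relative Ccl9 at 636 to 1002 CPM and tissue kallikrein Klk1 at 642 to 932 CPM. Retnlb, a bactericidal resistin-like protein, was rare at 0.847 to 14.2 CPM. The gastric mucin Muc5ac reached at most 8.99 CPM. The membrane mucin Muc13 was only 1.38 to 1.63 times as high as in other barcodes (488 to 676 CPM), and the membrane mucin Muc3, typical of enterocytes, was lower in goblet barcodes at 0.121 to 0.379 times the level in other barcodes. These 2 do not stand for all membrane mucins. Of the 8 on that list with counts, 2 were higher in goblet barcodes in all 6 libraries, 1 of them by more than 4 times. Another 3 had no UMI in goblet barcodes.

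**Figure D2:**
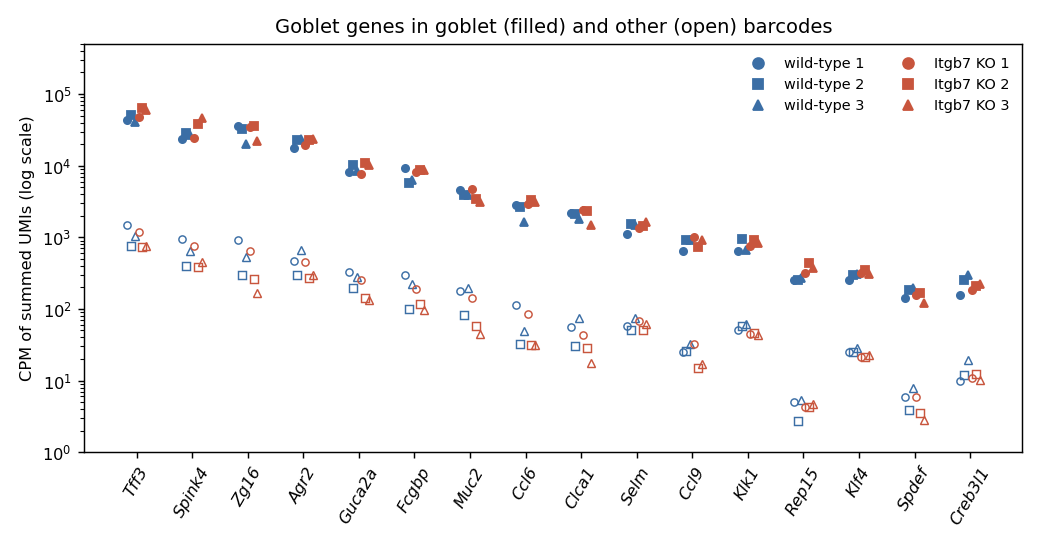
Levels of 16 goblet genes (vertical axis, CPM of summed UMIs, log scale) are plotted for goblet barcodes (filled) and other barcodes (open), 1 symbol per library, with wild-type in blue and libraries labelled Itgb7 KO in red. All 16 genes lie higher in goblet barcodes in each library, and the 6 libraries differ less among themselves than the barcode classes do.

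The start regions of the abundant products are shown so that the genes behind these levels can be read beside them. Sequences are the 250 bases before the gene start, 5′ to 3′ on the gene's strand, from RefSeq on GRCm38.p6. Shown are Muc2, Fcgbp, Agr2 and Guca2a, a choice among the genes named above that the table held. Ccl9, which is not shown, was held there too and also had the E-box described next. Capitals mark matches on either strand to CAGCTG, an E-box of the kind bound by basic helix-loop-helix factors such as Atoh1, or to TGTTTAC, a forkhead motif of the kind bound by Foxa factors. No capitals in a run means that these letters are not in that window.
Muc2 (chr7:141690090-141690339, plus strand): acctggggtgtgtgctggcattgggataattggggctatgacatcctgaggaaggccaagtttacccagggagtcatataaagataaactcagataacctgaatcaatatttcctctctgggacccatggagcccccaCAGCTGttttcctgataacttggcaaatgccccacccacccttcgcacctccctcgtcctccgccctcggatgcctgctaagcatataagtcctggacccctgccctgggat
Fcgbp (chr7:28070986-28071235, plus strand): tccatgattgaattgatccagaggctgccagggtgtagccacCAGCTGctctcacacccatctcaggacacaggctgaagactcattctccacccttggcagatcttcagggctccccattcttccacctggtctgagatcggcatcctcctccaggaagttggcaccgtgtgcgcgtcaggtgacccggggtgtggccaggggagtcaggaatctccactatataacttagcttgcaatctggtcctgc
Agr2 (chr12:35992675-35992924, plus strand): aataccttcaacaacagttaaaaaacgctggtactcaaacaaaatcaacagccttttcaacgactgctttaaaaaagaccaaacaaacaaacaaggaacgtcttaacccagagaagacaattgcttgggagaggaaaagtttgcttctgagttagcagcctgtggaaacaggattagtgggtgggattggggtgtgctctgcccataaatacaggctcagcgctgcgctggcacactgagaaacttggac
Guca2a (chr4:119637482-119637731, plus strand): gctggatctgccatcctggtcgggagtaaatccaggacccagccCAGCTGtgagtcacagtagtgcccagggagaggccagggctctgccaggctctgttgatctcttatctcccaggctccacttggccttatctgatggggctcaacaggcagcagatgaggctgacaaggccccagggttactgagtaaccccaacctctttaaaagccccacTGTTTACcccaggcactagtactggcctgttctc
The E-box was found at bases 112 to 107 before the start of Muc2, 208 to 203 before that of Fcgbp and 206 to 201 before that of Guca2a, where a forkhead match followed at 34 to 28. Of all 32851 start regions in the table, 4271 (13.0%) held the E-box and 1040 (3.17%) the forkhead motif. Among the 18 secreted products of the list with a start region, which does not count the rule's own genes, 4 held the E-box and 2 the forkhead motif. A match describes the letters and does not show that a factor binds there.

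The genes that most set goblet barcodes apart were not all mucus genes. Among 2347 genes with a mean of at least 50 CPM in goblet barcodes, 678 were higher than in other barcodes in all 6 libraries and 119 by more than 4 times in each. Ranked by their smallest fold over the libraries, an order chosen after the values were seen, Rep15 led at 50.3 to 101.1 times. It encodes an effector of the small GTPase Rab15. After Zg16 and Agr2 came the secreted phospholipase Pla2g10 (34.1 to 113 times), the tryptase Tpsg1 (33.6 to 116 times), the calpain Capn9 (33.6 to 124 times) and Bcas1 (29.9 to 105 times). Ramp1, a subunit of the receptor for the neuropeptide CGRP, ranked ninth among them at 29.4 to 134 times and 213 to 282 CPM.

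The machinery that makes and ships mucus stood above other barcodes to different degrees. Genes of protein folding in the endoplasmic reticulum summed to 10597, 13482 and 12799 CPM in wild-type and 11338, 13365 and 12746 CPM in Itgb7 KO-labelled libraries. This was 2.33 to 3.06 times the sum in other barcodes, and 35 of its 39 genes were higher in goblet barcodes in all 6 libraries. Within this list the general chaperones Hspa5 (1.86 to 2.79 times) and Calr (1.72 to 2.26 times) exceeded other barcodes far less than the selenoprotein Selm (19.3 to 29.8 times), the disulfide isomerases Txndc5 (10.4 to 13.9 times) and Pdia5 (11.5 to 21.6 times), and Ern2 (24.02 to 55.5 times). Ern2 is the stress sensor IRE1β, known from mucus-making epithelia, and its level was 96.8, 116 and 122 CPM in wild-type and 109, 111 and 92.7 CPM in Itgb7 KO-labelled libraries. Translocon and early transport genes, such as Sec61b at 2.095 to 2.502 times and Sec61g at 1.56 to 1.79 times, stood higher in all 6 libraries for 35 of 39 genes.

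Enzymes that build the sugar coat of mucin were higher in all 6 libraries for 37 of 51 genes, 12 of them by more than 4 times. The first sugar is added by GalNAc transferases, of which Galnt12 (263 ± 42.0 CPM, SD, n = 6) and Galnt7 (257 ± 72.1 CPM) had more UMIs than Galnt3 (94.2 ± 29.4 CPM) and Galnt4 (97.4 ± 21.1 CPM). Galnt12 was 9.63 to 15.4 times its level in other barcodes, and Galnt4 only 2.46 to 2.72 times. C1galt1c1, the chaperone of the core 1 enzyme, lay at 159 to 521 CPM, the core 2 branching enzyme Gcnt3 at 150.0 to 283 CPM and the sulfotransferase Chst4 at 67.1 to 105 CPM. Gmds and Tsta3, which make the fucose donor, exceeded other barcodes by 1.42 to 1.91 times and 2.53 to 3.22 times. The fucosyltransferase Fut2 was rare at 1.67 to 6.08 CPM. Of the granule and exocytosis genes, 22 of 38 were more than 4 times as high as in other barcodes in every library, among them the Rab27 effector Sytl2 (56.5 to 69.4 CPM) and the actin-severing protein Scin (234 to 495 CPM), while the granule SNARE Vamp8 was at 1 to 1.154 times the level in other barcodes.

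Transcription factors were lower in number of molecules. Klf4, a factor of goblet maturation, stood at 255, 295 and 312 CPM in wild-type and 322, 350.3 and 307 CPM in Itgb7 KO-labelled libraries and was 10.3 to 16.6 times the level in other barcodes. Foxa3 was 176, 249 and 235 CPM in wild-type and 182, 339 and 375 CPM in Itgb7 KO-labelled libraries, with the libraries labelled Itgb7 KO 2 and 3 highest and the groups overlapping. Spdef, which drives goblet maturation, lay at 120.1 to 199 CPM (24.2 to 47.1 times), and the membrane-bound factors Creb3l1 and Creb3l4 at 157 to 294 CPM and 95.6 to 116 CPM. Xbp1, the factor activated by the IRE1 sensors, lay at 252 to 395 CPM. Of 23 factors on the list, 15 were higher than in other barcodes in all 6 libraries. E-cadherin, the ligand of the αEβ7 integrin, was at the level of other barcodes (191, 159 and 174 CPM in wild-type and 201, 131 and 124 CPM in Itgb7 KO-labelled libraries, 0.894 to 1.06 times).

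Goblet barcodes varied along the marker sum itself, which was split at 100 and 300 UMIs per 10000. These bins are cut from the rule's own measure, so what follows is a description over 6 libraries with no test. Tff3 was 24481 ± 8241, 40213 ± 9287 and 69650.3 ± 9064 CPM (mean ± SD, n = 6) in the low, middle and high bin. Klk1 (317 ± 92.1, 611 ± 163 and 1120.4 ± 133 CPM), Scin (93.3 ± 62.2, 254 ± 78.6 and 531 ± 158 CPM), Capn9 (21.4 ± 5.78, 62.4 ± 8.29 and 141 ± 22.1 CPM) and Rep15 (143 ± 58.9, 273 ± 85.8 and 424 ± 68.1 CPM) were higher in the high than in the low bin in all 6 libraries. Capn9 had the largest mean ratio of these, 4.38 to 9.07 times. As a group, granule and exocytosis genes summed to 2469 ± 575, 3485 ± 561 and 4649 ± 449 CPM, and 32 of 38 were higher in the high bin by the mean.

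The control and folding genes moved less along this axis. Spdef was 150.2 ± 34.4, 177 ± 48.0 and 159 ± 19.9 CPM, with the high bin above the low in 3 of 6 libraries, and Atoh1 was 129 ± 54.9, 131 ± 53.8 and 122 ± 24.3 CPM, above in 2 of 6. Creb3l1 was 249 ± 77.6, 228 ± 60.7 and 196 ± 28.8 CPM, above in 1 of 6. Klf4, by contrast, was 209 ± 45.7, 267 ± 42.4 and 373 ± 34.03 CPM and higher in the high bin in all 6 libraries. Folding genes summed to 10805 ± 1846, 12762 ± 1891 and 12991 ± 698 CPM and mucin sugar genes to 4303 ± 1000.4, 4895 ± 921 and 5268 ± 587 CPM.

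Genes of dividing cells had the opposite slope in every library. The 22 proliferation genes summed to 2919 ± 691, 1660.0 ± 570.0 and 698 ± 158 CPM from the low to the high bin, and all 22 were lower in the high bin by the mean. Mki67, a marker of cycling cells, was 62.1 ± 27.1, 37.4 ± 24.1 and 14.8 ± 7.99 CPM, and Hmgb2, a chromatin protein of dividing cells, 843 ± 207, 435 ± 132 and 183 ± 37.1 CPM. Rnase1 was 239 ± 56.8, 160.4 ± 32.5 and 61.9 ± 17.96 CPM, the ribosomal protein gene Rpl13 5765 ± 537, 5207 ± 477 and 3849.6 ± 399.6 CPM and the epithelial adhesion protein gene Epcam 1528 ± 158, 1314 ± 130.3 and 1058 ± 78.0 CPM, each lower in the high bin in 6 of 6 libraries. Since the sum over all genes is fixed, a gene's CPM also falls as the mucus genes take up more of the total, and the rule's 4 genes alone went from 5790.4 to 75754 CPM. Median UMIs per barcode over the 3 bins were 11398, 11439 and 11484 in wild-type library 3, but 25826, 21890 and 20391 in wild-type library 1.

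**Figure D3:**
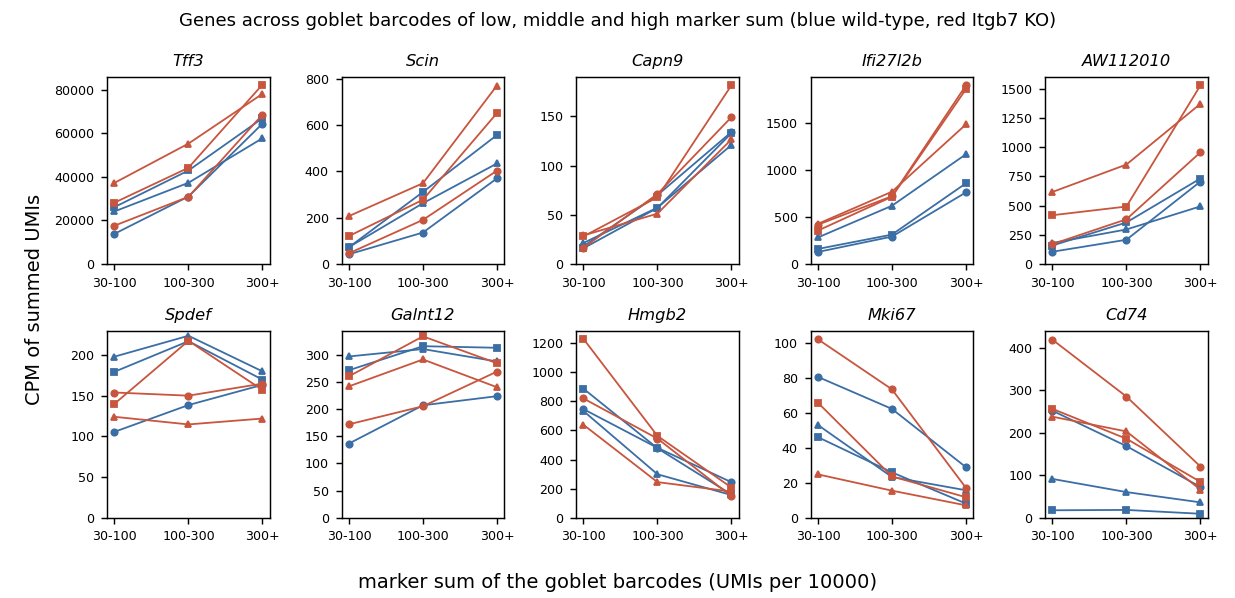
The level of 10 genes (vertical axes, CPM of summed UMIs, each from 0) is plotted for goblet barcodes with a marker sum of 30 to 100, 100 to 300 and 300 or more UMIs per 10000, 1 line per library, with wild-type in blue and libraries labelled Itgb7 KO in red. Tff3, Scin, Capn9, Ifi27l2b and AW112010 climb in all 6 lines, Spdef and Galnt12 have no common direction, and Hmgb2, Mki67 and Cd74 descend from the low to the high bin.

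RNA of other cell types was present in goblet barcodes to an extent that differed by list and by library. The hormone gene Sct is given further below. Paneth markers summed to 16729, 8826 and 7617 CPM in wild-type and 12592, 7904 and 8124 CPM in Itgb7 KO-labelled libraries. The same sum in other barcodes was 8279, 354 and 447 CPM in wild-type and 4132, 312 and 298 CPM in Itgb7 KO-labelled libraries, far higher in the libraries numbered 1 than in the other 4. The part of RNA from Paneth cells in the goblet sums was not tested. Members with 1% or more of their UMIs from Lyz1 and the Defa genes numbered 75, 55 and 73 in wild-type and 57, 53 and 51 in Itgb7 KO-labelled libraries, in all 364 (17.3%). Tuft markers summed to 1458 to 2914 CPM, 3.53 to 6.15 times their sum in other barcodes, but nearly all of this was Krt18. In the low, middle and high bin of the marker sum, the tuft list averaged 1633, 2156 and 2484 CPM. Krt18 alone averaged 1623, 2144 and 2477 CPM there. The ratio thus describes Krt18 and not the tuft genes as a set. Of the 14 tuft genes, 1 was higher in goblet barcodes in all 6 libraries and 2 had no UMI there. Enterocyte markers summed to 2077 to 3511 CPM, below the 7345 to 10897 CPM of other barcodes. Enteroendocrine markers, Sct included, summed to 663, 504 and 587 CPM in wild-type and 595, 1596 and 495 CPM in Itgb7 KO-labelled libraries. In other barcodes the sums were 315, 923 and 1166 CPM in wild-type and 1413, 1941 and 2292 CPM in Itgb7 KO-labelled libraries. Only in wild-type library 1 was the goblet sum the higher one. Markers of T and other immune cells summed to at most 4.596 CPM with 8 of 16 at 0, those of plasma and B cells to at most 1.83 CPM with 3 of 6 at 0, and those of stroma to at most 6.43 CPM with 7 of 11 at 0. Ptprc, the pan-leukocyte marker, had no UMI in any goblet barcode.

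A few single barcodes carried another cell type's hormone. In the library labelled Itgb7 KO 2, 1 goblet barcode held 3795 UMIs of Ghrl, the ghrelin gene, and raised the Ghrl level of that library to 1176 CPM. Without that barcode it was 26.8 CPM, beside 21.1, 4.87 and 14.8 CPM in the wild-type libraries. Chgb, a granule protein of endocrine cells, reached 20 or more UMIs in 5 barcodes of wild-type library 1 and in 1 of the library labelled Itgb7 KO 1, and in no other. Droplets with more than 1 cell were scored but kept. Removing the highest scores would have taken 184 of the 2100 goblet barcodes (8.76%) against 977 of all barcodes (3.74%).

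UMIs of genes of dividing cells were fewer in goblet than in other barcodes. The 22 proliferation genes summed to 992 to 1793 CPM in goblet and 2918 to 4087 CPM in other barcodes, and none of the 22 was higher in goblet barcodes in all 6 libraries. After thinning to 3000 UMIs, the share of goblet barcodes with a UMI of Mki67, Top2a, Cdk1, Ccna2 or Ccnb1 was 30.9, 19.4 and 23.7% in wild-type and 27.4, 20.1 and 16.6% in Itgb7 KO-labelled libraries. In other barcodes it was 50.7, 44.9 and 40.8% in wild-type and 51.4, 42.8 and 37.1% in Itgb7 KO-labelled libraries. Unthinned, the goblet shares were 73.7, 45.3 and 54.1% in wild-type and 68.7, 38.0 and 25% in Itgb7 KO-labelled libraries. Thinning left out 4 goblet barcodes that were too shallow in wild-type library 3, 4 in the library labelled Itgb7 KO 2 and 21 in number 3 of that group. The share from free RNA was not measured, so a barcode with such a UMI is not taken as a dividing cell. Wild-type library 1 had the highest share and the library labelled Itgb7 KO 3 the lowest, and the groups overlapped.

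No difference in the share of goblet cells was found beyond the spread of the libraries. Goblet barcodes as percent of kept barcodes were 9.45, 7.75 and 9.75% in wild-type and 9.28, 6.05 and 7.45% in Itgb7 KO-labelled libraries, or 8.98% ± 1.08 (SD, n = 3) and 7.59% ± 1.62 (SD, n = 3). The library labelled Itgb7 KO 2 was lowest, and number 1 of that group lay within the wild-type range. In each of the 3 pairs of the same number the library labelled Itgb7 KO had the lower share, and signs flipped within pairs gave an exact p = 0.25, the smallest that 3 pairs allow. The unpaired difference of -1.39 percentage points had p = 0.2 in an exact 2-sided permutation test, whose smallest p for 3 against 3 libraries is 0.1, and an adjusted p = 0.72 over 6 shares. The other 5 shares (left-out barcodes with Atoh1 and Dll1, the 3 bins, and barcodes with a proliferation gene) gave exact p = 0.5 to 0.8. With the barcodes of Atoh1 and Dll1 kept the shares were 25.2, 16.5 and 18.8% in wild-type and 24.7, 12.005 and 12.9% in Itgb7 KO-labelled libraries, with the libraries numbered 1 highest in both groups, and the difference was -3.66 percentage points (exact permutation p = 0.5). The libraries numbered 1 carry neighbouring serial numbers in their deposited names, apart from those of the rest, and what these numbers stand for is not stated. Among the other 4 libraries the difference was -1.998 percentage points (exact permutation p = 0.333, the smallest for 2 against 2).

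**Figure D4:**
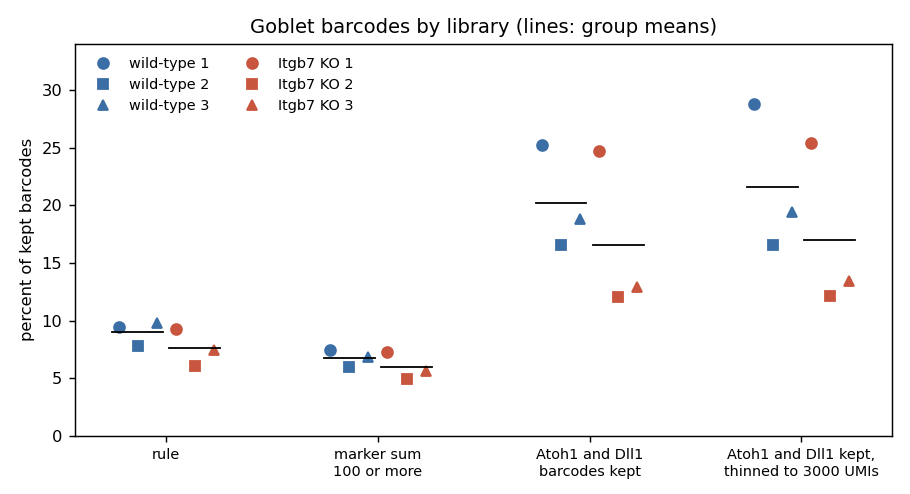
Goblet barcodes as percent of kept barcodes (vertical axis) are plotted by library under the rule, with a marker sum of 100 or more, with barcodes of Atoh1 and Dll1 kept, and with these kept after thinning to 3000 UMIs; black lines are group means. The groups overlap under each of the 4 definitions, and the libraries numbered 1 lie far above the others when Atoh1 and Dll1 barcodes are kept.

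Gene expression in goblet cells was compared between the groups on the summed UMIs, with genotype as the only term. Many interferon-response and antigen-presentation genes stood higher in the libraries labelled Itgb7 KO without passing the test, while the mucus products, the secretory machinery and the goblet transcription factors lay near the centre of all genes. No single gene passed the threshold: edgeR's quasi-likelihood test called 0 of 10199 genes (0%) at an adjusted p under 0.05, while 245 (2.40%) had an unadjusted p under 0.05. DESeq2 called 10 (0.0980%), with Isg15, Ifit1, Ddx60, Ifi27l2b, Ifi44, Ube2l6, AW112010 and 2210407C18Rik higher and Agpat4 and Mtus2 lower. A replicate block gave 4 calls in edgeR (0.0381%), with Agpat4 and Fabp6 lower and Ddx60 and Cd59a higher. Fabp6, a bile acid carrier of the ileum, was 334, 94.8 and 137 CPM in wild-type and 185, 31.5 and 46.6 CPM in Itgb7 KO-labelled libraries, lower in the library labelled Itgb7 KO of each number, though the groups overlapped. With the libraries numbered 1 against the other 4 as a block edgeR called 13 (0.124%). Of these Isg15, Ifit1, Ddx60, Ifi27l2b, Ube2l6, 2210407C18Rik, Psmb8, H2-T23 and H2-Ab1 were higher and Agpat4, Mtus2, Fabp6 and Gm15284 lower. EdgeR without a filter on low counts called 5 (0.0314%), with Isg15, Ddx60 and Ifit1 higher and Mtus2 and Agpat4 lower, and with Atoh1 and Dll1 barcodes kept it called only Agpat4 (0.00893%). As a second description, 261 genes (2.56%) had all 3 libraries labelled Itgb7 KO above all 3 wild-type ones, and 533 (5.23%) had them all below. The median log2 fold over all genes was 0.00. Fewer cells that express a gene and less RNA of it per cell cannot be told apart in these sums.

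The interferon-response list had the most genes without overlap. Of its 42 genes tested, edgeR called 0, 41 had a positive log2 fold of Itgb7 KO over wild-type, and 21 did not overlap between the groups, all higher, against the 2.56% of all genes. The median log2 fold of the list was 1.19, and over all genes 0.00. Leaving out the library labelled Itgb7 KO 1 brought it to 0.78, and among the 4 libraries other than those numbered 1 it was 0.52. Isg15 (ENSMUSG00000035692, chr4:156199424-156200818, GRCm38), a ubiquitin-like protein induced by interferon, was 11.2, 14.2 and 23.8 CPM in wild-type and 83.4, 57.2 and 39.02 CPM in Itgb7 KO-labelled libraries. All 3 libraries labelled Itgb7 KO lay above the wild-type ones, with number 1 the highest. Its log2 fold was 1.92 ± 0.33 (SE), with an adjusted p = 0.494 in edgeR, and DESeq2 gave an adjusted p = 0.000169. Ifi27l2b, of the interferon-induced Ifi27 family, was the most abundant member at 495, 543 and 724 CPM in wild-type and 1260.1, 1312 and 989.8 CPM in Itgb7 KO-labelled libraries, again with no overlap, and had a log2 fold of 1.05 ± 0.18 (SE) (edgeR adjusted p = 0.494, DESeq2 0.000357). With the libraries numbered 1 as a block edgeR called both genes, each at an adjusted p = 0.0357, and without a filter on low counts it called Isg15 at an adjusted p = 0.0172. Over 17 alternatives, DESeq2 among them, the adjusted p ran from 0.000169 to 1 for Isg15 and from 0.000357 to 1 for Ifi27l2b.

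The helicase-like protein Ddx60 was 5.82, 4.44 and 11.2 CPM in wild-type and 25.9, 24.2 and 25.8 CPM in Itgb7 KO-labelled libraries and was called with the replicate block (edgeR log2 fold 1.93, adjusted p = 0.039, and from 0.000212 to 1 over 17 alternatives). Ifit1, which binds foreign RNA, was rarer at 2.14, 0.847 and 2.998 CPM in wild-type and 13.4, 17.9 and 6.59 CPM in Itgb7 KO-labelled libraries, with 14, 4 and 18 UMIs in the wild-type sums. Both showed no overlap, as did Irf7, the factor that amplifies interferon production (19.8, 26.9 and 39.3 CPM in wild-type and 98.5, 58.7 and 42.6 CPM in Itgb7 KO-labelled libraries), and the oligoadenylate synthetase Oas1a (12.4, 18.2 and 37.0 CPM in wild-type and 47.0, 56.9 and 49.7 CPM in Itgb7 KO-labelled libraries). In Irf7 the lowest library labelled Itgb7 KO, number 3, lay close above the highest wild-type one. In the other 21 of the 42 genes tested the groups overlapped, among them Ifitm2 (263, 255 and 245 CPM in wild-type and 243, 241 and 267 CPM in Itgb7 KO-labelled libraries) and Ifitm3 (73.7, 39.999 and 66.1 CPM in wild-type and 158, 37.2 and 41.1 CPM in Itgb7 KO-labelled libraries).

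Ifi27l2b was also higher in barcodes of higher marker sum, and the groups lay apart within its bins. Its level was 294 ± 128, 570.1 ± 214 and 1336 ± 489 CPM over the low, middle and high bin. Within the low bin the wild-type libraries lay at 127 to 281 CPM and those labelled Itgb7 KO at 354 to 426 CPM, and within the high bin at 760.0 to 1165 and 1482 to 1896 CPM. The groups did not overlap in any of the 3 bins. After thinning to 3000 UMIs, the share of goblet barcodes with a UMI of Ifi27l2b was 66.8, 64.5 and 74.2% in wild-type and 86.1, 86.9 and 85.6% in Itgb7 KO-labelled libraries, and in other barcodes it was 36.3, 33.9 and 40.2% in wild-type and 61.2, 47.6 and 42.4% in Itgb7 KO-labelled libraries. The size of the difference was not equal in the 2 sets of libraries. On log2 of CPM plus 1, Isg15 differed by 2.79 between the libraries numbered 1, and by 1.38 in an edgeR fit of the other 4. For Irf7 these were 2.26 and 0.66, and for Ddx60 1.98 and 1.67.

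**Figure D5:**
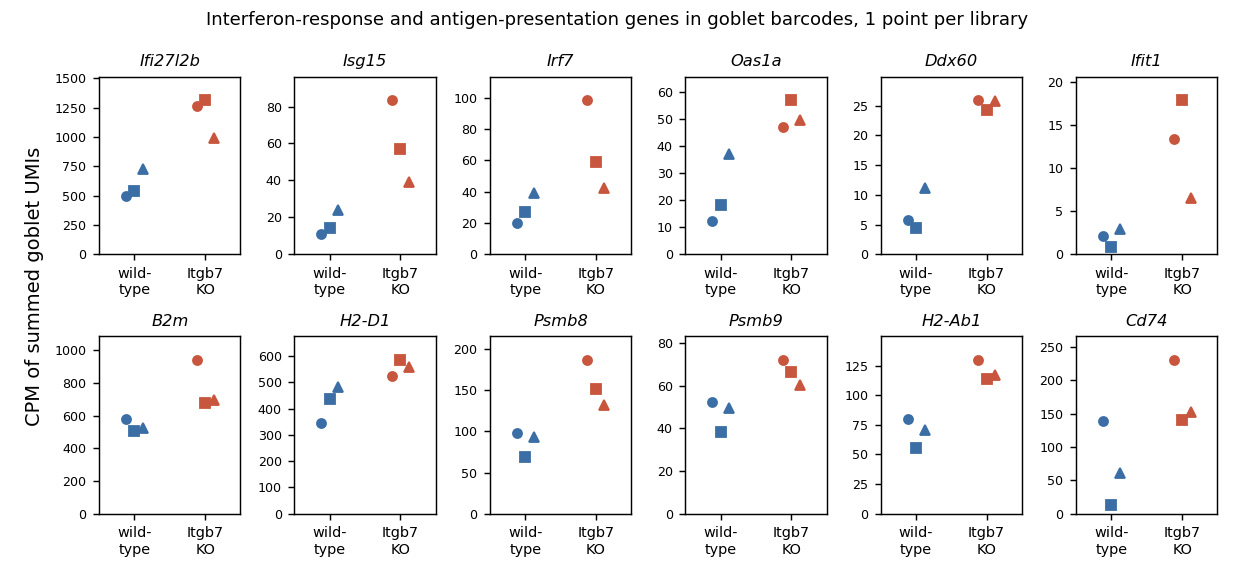
Levels of 6 interferon-response genes (top) and 6 antigen-presentation genes (bottom) in goblet barcodes (vertical axes, CPM of summed UMIs from 0) are plotted with 1 point per library, wild-type in blue at the left and libraries labelled Itgb7 KO in red at the right. All 12 genes shown are ones in which the 3 libraries labelled Itgb7 KO lie above the 3 wild-type libraries. Such genes were 21 of 42 tested on the interferon-response list, 8 of 22 on the MHC class I list and 3 of 6 on the MHC class II list.

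The start regions of Isg15 and Ifit1 are shown because the members of this list lay on the same side together. They are the 250 bases before the gene start from the same RefSeq table, and capitals mark GAAA followed after any 2 bases by GAAA, the core of the interferon-stimulated response element, on either strand; overlapping matches run together.
Isg15 (chr4:156200819-156201068, minus strand): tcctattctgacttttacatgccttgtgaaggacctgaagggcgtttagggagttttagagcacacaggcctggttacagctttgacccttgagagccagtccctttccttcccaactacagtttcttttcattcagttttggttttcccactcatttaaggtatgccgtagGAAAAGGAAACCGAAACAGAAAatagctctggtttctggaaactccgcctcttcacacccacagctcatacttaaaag
Ifit1 (chr19:34640639-34640888, plus strand): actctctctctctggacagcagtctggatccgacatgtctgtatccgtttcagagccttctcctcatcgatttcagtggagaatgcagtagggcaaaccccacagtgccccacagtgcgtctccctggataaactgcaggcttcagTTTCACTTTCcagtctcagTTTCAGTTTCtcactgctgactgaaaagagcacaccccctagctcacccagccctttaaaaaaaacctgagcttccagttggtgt
Isg15 held 3 overlapping matches, between bases 78 and 57 before the start, and Ifit1 held 2, at 104 to 95 and 85 to 76. The motif was in 978 of all 32851 start regions (2.98%). Of 40 genes of the interferon list with a start region, 22 held it, as did 3 of 20 genes of the MHC class I list, B2m among them.

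Genes of MHC class I presentation had 22 members tested, of which edgeR called 0, 20 had a positive log2 fold and 8 (36.4%) did not overlap, all higher, against 2.56% of all genes. Their median log2 fold was 0.39. The light chain B2m was 583, 504 and 524 CPM in wild-type and 944, 680.3 and 699 CPM in Itgb7 KO-labelled libraries, with a log2 fold of 0.56 ± 0.17 (SE). Psmb8 and Psmb9 encode immunoproteasome subunits that cut peptides for presentation. Psmb8 was 98.4, 68.4 and 92.8 CPM in wild-type and 187, 152 and 132 CPM in Itgb7 KO-labelled libraries, with a log2 fold of 0.89 ± 0.19 (SE) and an edgeR adjusted p = 0.999, and Psmb9 was 52.4, 38.1 and 49.6 CPM in wild-type and 72.2, 66.3 and 60.3 CPM in Itgb7 KO-labelled libraries. Neither overlapped between the groups. With the libraries numbered 1 as a block edgeR called Psmb8 and the nonclassical heavy chain H2-T23, each at an adjusted p = 0.0357. The heavy chain H2-D1 was 346, 438 and 484 CPM in wild-type and 525, 587 and 559.5 CPM in Itgb7 KO-labelled libraries, again without overlap, whereas in H2-K1 (356, 328 and 323 CPM in wild-type and 539, 348 and 335 CPM in Itgb7 KO-labelled libraries) the groups overlapped.

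MHC class II genes present peptides to CD4+ T cells and can be switched on in epithelium by interferon. Of 6 members tested, 6 had a positive log2 fold and 3 (50%) did not overlap, all higher, against 2.56% of all genes, with a median of 1.21 and 0 called by edgeR. Leaving out the library labelled Itgb7 KO 1 made it 0.61, and leaving out wild-type library 1 made it 1.81. The invariant chain Cd74 was 139.6, 13.8 and 60.6 CPM in wild-type and 231, 141 and 153 CPM in Itgb7 KO-labelled libraries. Wild-type library 2 was far lower than the rest, and wild-type library 1 lay just below the lowest library labelled Itgb7 KO. H2-Ab1, the β chain, was 80.0, 55.4 and 70.6 CPM in wild-type and 130.03, 114 and 117 CPM in Itgb7 KO-labelled libraries with a log2 fold of 0.84 ± 0.17 (SE). It was called by edgeR with the libraries numbered 1 as a block (adjusted p = 0.0357), and not without a block (adjusted p = 0.999). The peptide loader H2-DMb1 was 8.12, 3.60 and 6.66 CPM in wild-type and 15.7, 11.5 and 16.7 CPM in Itgb7 KO-labelled libraries. Unlike Ifi27l2b, Cd74 was lower in goblet barcodes of high marker sum (212 ± 141, 154 ± 97.9 and 64.9 ± 38.6 CPM), and it was 0.223 to 0.416 times the level in other barcodes. The part of RNA from other barcodes in its goblet level was not tested.

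Of 22 secreted goblet products tested, edgeR called 0, and the groups overlapped in 17. The median log2 fold was 0.12. Retnlb, Ccl6 and Sval1 did not overlap and were higher, 13.6% of the list against 2.56% of all genes. Muc5ac and Smoc2 did not overlap and were lower, 9.09% against 5.23%. Ccl6 was 2798, 2677 and 1649 CPM in wild-type and 2934, 3354 and 3108 CPM in Itgb7 KO-labelled libraries, with a log2 fold of 0.43 ± 0.22 (SE). Retnlb was 5.97, 0.847 and 1.83 CPM in wild-type and 8.51, 7.87 and 14.2 CPM in Itgb7 KO-labelled libraries, with wild-type library 1 next below the other group. Muc5ac was 2.14, 6.14 and 8.99 CPM in wild-type and 1.74, 2.12 and 0 CPM in Itgb7 KO-labelled libraries, with at most 54 UMIs in a library. Tff3 had a log2 fold of 0.37 ± 0.19 (SE) and Spink4 of 0.49 ± 0.25 (SE), both with overlap. Rep15, named for its fold over other barcodes, was 258, 255 and 270.3 CPM in wild-type and 313, 437 and 368 CPM in Itgb7 KO-labelled libraries, with no overlap and a log2 fold of 0.55 ± 0.16 (SE) (edgeR adjusted p = 0.999).

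The secretory machinery gave medians close to that of all genes. The median log2 fold was 0.07 over 39 folding genes, 0.06 over 39 transport genes, 0.08 over 43 mucin sugar genes and 0.00 over 36 granule genes tested, and edgeR called 0 in each. Genes without overlap were about as frequent in these lists as among all genes, of which 2.56% were higher and 5.23% lower, or less so. Of the folding genes 1 (2.56%) did not overlap, Ddit3, the CHOP factor of prolonged unfolded protein stress (56.8, 83.6 and 55.0 CPM in wild-type and 84.6, 112 and 137 CPM in Itgb7 KO-labelled libraries, log2 fold 0.81 ± 0.24 (SE)). The chaperone Hspa5 was 857, 996 and 824 CPM in wild-type and 825, 1119.6 and 1032 CPM in Itgb7 KO-labelled libraries, with overlap. In the transport list Sec13 did not overlap and was higher and Mcfd2 lower (2.56% each), and in the mucin sugar list St3gal1 and B4galt4 were lower (4.65%). Of 23 transcription factors tested, 1 (4.35%, against 2.56% of all genes) did not overlap and was higher. This was Elf3, an epithelial ETS factor, at 298, 278 and 221 CPM in wild-type and 310.0, 408 and 361 CPM in Itgb7 KO-labelled libraries (log2 fold 0.47 ± 0.18 (SE)). Notch genes had a median of 0.00 over 16 tested, and integrin and E-cadherin genes 0.00 over 17.

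Heat-shock genes differed widely among libraries. Hspa1a, an inducible Hsp70, was 24.1, 39.6 and 9.16 CPM in wild-type and 91.5, 86.6 and 406 CPM in Itgb7 KO-labelled libraries. The groups did not overlap, but the library labelled Itgb7 KO 3, the shallowest, stood far above the other 5. Without that library the log2 fold of Hspa1a was 1.90, against 3.06 ± 0.74 (SE) with it (edgeR adjusted p = 0.999). Hspa1b was 10.3, 9.10 and 4.16 CPM in wild-type and 23.03, 16.3 and 123.2 CPM in Itgb7 KO-labelled libraries, and Hsp90aa1 lay at 266 to 508 CPM, both without overlap. Of 17 genes of dissociation and immediate early response tested, edgeR called 0, these 3 (17.6%, against 2.56% of all genes) were higher without overlap, and the abundant Fos (734, 2064 and 1309.6 CPM in wild-type and 866, 2082 and 2564 CPM in Itgb7 KO-labelled libraries) overlapped. Fos stood at 2.95 to 4.30 times its level in other barcodes. How much of this RNA was made while the cells were isolated was not tested.

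Agpat4 (ENSMUSG00000023827, chr17:12118704-12219645, GRCm38), which encodes an acyltransferase of phospholipid synthesis and was known from earlier results of these data, was 20.2, 23.1 and 19.2 CPM in wild-type and 1.94, 6.05 and 4.05 CPM in Itgb7 KO-labelled libraries. The groups lay far apart, with a log2 fold of -2.42 ± 0.34 (SE), an edgeR adjusted p = 0.461 and a DESeq2 adjusted p = 5.95e-06. It was the gene with the lowest edgeR p of the goblet comparison and was called with the replicate block (adjusted p = 0.039). Over 17 alternatives its adjusted p ran from 5.95e-06 to 1. Mtus2, a microtubule-associated protein singled out after its values were seen, followed at 5.21, 6.35 and 4.16 CPM in wild-type and 0.387, 0.605 and 1.01 CPM in Itgb7 KO-labelled libraries (log2 fold -3.07 ± 0.44 (SE), edgeR adjusted p = 0.461, DESeq2 0.0203), from 2 UMIs in each library labelled Itgb7 KO. Agpat4 was lower in other barcodes as well, at 19.9, 16.9 and 14.2 CPM in wild-type and 2.30, 2.102 and 1.59 CPM in Itgb7 KO-labelled libraries.

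Among genes with a mean of at least 32 CPM and no overlap, the largest positive log2 folds belonged to Hspa1a, Isg15, Cd74, Irf7, Oas1a, AW112010, Ifi27l2b and 2210407C18Rik. AW112010, an immune-related transcript that DESeq2 called (adjusted p = 0.0141), was 442, 492 and 335 CPM in wild-type and 630.4, 1089 and 1016 CPM in Itgb7 KO-labelled libraries and 10.04 to 17.5 times its level in other barcodes. The negative ones were smaller: Sord, the gene of sorbitol dehydrogenase, had a log2 fold of -0.57 ± 0.20 (SE), Ngfrap1 -0.52 ± 0.18 (SE), Chp1 -0.45 ± 0.14 (SE), the ubiquitin ligase Nedd4 -0.42 ± 0.14 (SE) and the elongation factor Eef2 -0.39 ± 0.17 (SE). Eef2 was 1094, 1222 and 1209 CPM in wild-type and 1068, 875 and 683 CPM in Itgb7 KO-labelled libraries. The library labelled Itgb7 KO 3 was lowest, and number 1 of that group lay just below the wild-type libraries.

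Whether the difference between the groups was particular to goblet cells was tested as an interaction, the log2 fold in goblet barcodes minus that in all other kept barcodes of the same libraries. In this test the other barcodes included those left out for Atoh1 and Dll1 or for Paneth RNA. Among them were the 2418 barcodes with Atoh1, Dll1 and the goblet marker sum. The test thus did not set goblet cells against cells of other types alone. The CPM of other barcodes given below leave those sets out, as elsewhere. EdgeR called 0 of 12613 genes (0%), while 277 (2.20%) had an unadjusted p under 0.05. DESeq2 called 0, with 126 (0.999%) at that level. On simulated sums the edgeR interaction test found 65% or 4% of genes with a true log2 fold of 1, by the spread set between libraries. A count of 0 therefore does not show that the groups differed equally in both classes. Isg15 in other barcodes was 6.60, 8.43 and 14.0 CPM in wild-type and 56.2, 14.8 and 11.2 CPM in Itgb7 KO-labelled libraries, higher in the library labelled Itgb7 KO 1 than in any wild-type library and overlapping for number 3. Its interaction was 0.54 ± 0.31 (SE), that of Ifi27l2b 0.32 ± 0.22, and that of Agpat4 0.50 ± 0.42. Over 50 interferon genes the median interaction was 0.07, and over 7 MHC class II genes -0.46, with 0 of the 7 positive. H2-Ab1, for example, was 87.3, 18.99 and 58 CPM in wild-type and 212, 142 and 118 CPM in Itgb7 KO-labelled libraries for other barcodes, without overlap between the groups, and its interaction did not pass the threshold at -0.72 ± 0.33 (SE, edgeR adjusted p = 1).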

How the data were processed

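Single-cell RNA was measured in 6 small-intestinal libraries (10x Genomics 3′ chemistry), 3 per genotype label. The deposited values are raw UMI counts per gene and barcode, whole numbers per the file headers. The submitters' processing notes name bcl2fastq 2.17.1.14, Cell Ranger 2.1.1, Seurat and build mm10 without their roles, and how barcodes were filtered before deposit is not given in the sources used here. Counts were used as deposited: barcodes with at least 500 genes and at most 25% mt- UMIs were kept (3 failed the first limit), the marker rule was applied, and counts were summed per library. Library totals ran from 28475253 to 76133693 UMIs, and goblet sums held 27701664 UMIs in all.

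Sums were compared with edgeR 4.0.16 in R 4.3.3 (quasi-likelihood test, TMM scaling, filterByExpr, Benjamini-Hochberg adjustment over all genes tested, threshold 0.05), and the script was tested on simulated data. With a simulated dispersion (spread between libraries beyond counting) of 0.02, the goblet fit recovered 95% of genes with a log2 fold of 1 and the interaction 65%. With a dispersion of 0.1 these were 22% and 4%, and for a log2 fold of 2 they were 91% and 42%. The interaction used 12 sums, the goblet barcodes and all remaining kept barcodes of each library, those with Atoh1 and Dll1 or Paneth RNA included. Shares were compared with exact 2-sided permutation tests in scipy 1.17.1, adjusted over 6. Alternatives were DESeq2 1.42.0, 2 count filters, each library left out, 2 blocks, 4 libraries only, other marker and mitochondrial limits, thinning to 3000 UMIs, and removal of Scrublet doublet scores (scanpy 1.11.5; 0.8% of barcodes per 1000). The doublet threshold that Scrublet set itself marked 0.174 to 7.57% of a library and was not used. The share with thinning and Atoh1 and Dll1 barcodes kept was an alternative chosen after seeing the data.

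Deviations of same-numbered libraries from their group means correlated at 0.586, 0.142 and 0.220 over genes, while wild-type library 2 correlated more (0.425) with the library labelled Itgb7 KO 3. The labels do not say that a number pairs libraries. Pairing by number was therefore used only as an alternative, the replicate block. Gene positions are those of GENCODE M21 on GRCm38 (mm10), which matched 27645 of 27998 identifiers (98.7%). Genes named in the text are called genes, the markers, Itgb7, Itgae, Cdh1 and Agpat4, of each gene list the 4 with the highest level and up to 3 without overlap by p, and the 8 highest and 8 lowest folds without overlap among genes of at least 32 CPM. Those outside this rule are named for roles stated beside them and were picked with values seen. The members and the gene lists were chosen with earlier results of these data known.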

Additional observations from a re-analysis of the deposited data

How the results depend on the processing

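The count of goblet genes called between the groups was 0 in edgeR and moved with the method: DESeq2 gave 10, edgeR without a filter on low counts 5, with a replicate block 4, with the libraries numbered 1 set apart as a block 13, and with Atoh1 and Dll1 barcodes kept 1. The other settings gave 0, and so did leaving out each library in turn (0 to 0). The replicate block changed no other call. For 50 named genes no fold changed sign under 17 settings, 27 values passed the threshold where edgeR as reported did not, and 823 stayed on its side. In most of these genes the groups did not overlap, which was a reason to name them. A change of sign was thus unlikely from the start, and its absence is no separate support. Among list medians 15 moved by more than the spread between libraries and 308 did not, and the cause was not tested. The interaction count was 0 under 15 alternatives.

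The difference in goblet share was negative throughout, from -0.618 percentage points without the library labelled Itgb7 KO 2 to -4.79 after thinning to 3000 UMIs. Its smallest exact permutation p was 0.2, and with the replicate block (signs flipped within pairs) it was 0.25. Leaving out each library gave -2.23 to -0.618. An edgeR test on barcode numbers gave a log2 fold of -0.26, which did not pass the threshold.

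With 3 libraries a group, an exact test cannot go below 0.1, and with 3 pairs not below 0.25. Depth limits the rule itself: joint detection of Atoh1 and Dll1 falls with UMIs per barcode, and goblet medians ranged from 5709 to 21470 UMIs. Genes of a few UMIs in a sum, such as Mtus2 and Muc5ac, have folds that depend on the prior count.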

Other observations

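Several groups of genes that belong to no comparison above were also read in goblet barcodes. Receptors and signal carriers of type 2 and inflammatory cytokines were present at low levels. Il13ra1, a chain of the IL-4 and IL-13 receptor, was 40.4, 63.1 and 51.0 CPM in wild-type and 42.0, 59.9 and 85.1 CPM in Itgb7 KO-labelled libraries, which was 1.34 to 1.93 times its level in other barcodes. Stat6, which acts below that receptor, was 26.5, 26.5 and 27.0 CPM in wild-type and 25.2, 22.7 and 16.2 CPM in Itgb7 KO-labelled libraries. All 3 Itgb7 KO-labelled libraries were below the wild-type ones, as were 5.23% of all genes, and this was 1 gene of 20 tested on that list (5%). Ifngr1, a chain of the interferon-γ receptor, was 85.6, 90.8 and 73.4 CPM in wild-type and 87.8, 92.6 and 73.5 CPM in Itgb7 KO-labelled libraries, with overlap.

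Antimicrobial lectins of the epithelium varied several-fold among libraries, and the groups overlapped. Reg3b was 2771, 389 and 418 CPM in wild-type and 1173, 787 and 1091 CPM in Itgb7 KO-labelled libraries and Reg3g 1944, 429 and 441 CPM in wild-type and 849, 930.3 and 1359 CPM in Itgb7 KO-labelled libraries. Wild-type library 1 was highest for both. Their levels in other barcodes were higher, as goblet barcodes had 0.316 to 0.477 times and 0.368 to 0.618 times as much.

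Genes with a known slope along the small intestine did not lie alike in all libraries. Fabp6, an ileal gene, was highest in the libraries numbered 1. Onecut2, a factor of the proximal intestine, was 26.0, 29.6 and 31.3 CPM in wild-type and 39.3, 49.95 and 48.7 CPM in Itgb7 KO-labelled libraries, and the alcohol dehydrogenase Adh6a 36.6, 34.7 and 40.3 CPM in wild-type and 47.8, 76.0 and 53.2 CPM in Itgb7 KO-labelled libraries. In both all 3 Itgb7 KO-labelled libraries were above the wild-type ones, with number 1 the lowest of them; such genes were 18.2% of those tested on the proximal list and 2.56% of all genes. Of 11 proximal genes tested edgeR called 0, with a median log2 fold of 0.29, and of 12 distal genes (a list that holds Tff3) also 0, with a median of -0.26. Which stretch of intestine was sampled is not given in the sources used here, and its part in the goblet comparison was not tested.

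Secretin (Sct), a hormone of endocrine cells, was found in goblet sums of every library at 292, 455 and 479 CPM in wild-type and 393, 319 and 384 CPM in Itgb7 KO-labelled libraries, and this was 2.09 to 9.001 times the level in other barcodes. With Sct left out of the sum, 4 goblet barcodes had 1% or more of their UMIs from the endocrine genes listed. How Sct itself was spread over goblet barcodes was not tested.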
